A study of Mus musculus with 9 samples.

Results

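Collagen leaves the cell only after enzymes have modified it, and its fibres become strong only after other enzymes have crosslinked it. The enzymes described here carry out both steps, and they were followed in whole mouse embryos at 9.5 days post coitum (dpc) with targeted alleles of the Notch pathway. The 9 gene symbols P4ha1, P4ha2, P4hb, Plod1, Plod2, Plod3, Lox, Loxl1 and Loxl2 were looked up, and every probe set annotated to exactly 1 of them was taken. That gave 12 probe sets of 8 genes, among 12393 genes and 22626 probe sets tested. Loxl2 has no value here, because its single probe set is also annotated to Gm21451.

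Total RNA of whole embryos was measured on 9 Affymetrix arrays in 5 genotype groups. Both Notch1 null arrays were homozygous for the targeted allele Notch1tm1Con (Notch1tm1Con/tm1Con), and 1 Notch1 het array carried it once (Notch1tm1Con/+). The 2 wild type arrays were labelled +/+, the 2 Dll3 het arrays Dll3neo/+ and the 2 Dll3 null arrays Dll3neo/neo. Notch1 encodes a receptor and Dll3 a ligand of the Notch pathway. The labels name the C57BL/6J strain for 1 Notch1 null array only. Embryo sex, where a fit below uses it, was inferred from the values. Whether replicates came from different embryos or litters is not told by the labels, so the spread behind each p-value is that between arrays and may be technical.

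The deposited value of a probe set is a ratio: each was divided by a number of its own, so that most have a median of 1 over the 9 arrays. Such ratios compare arrays but hold no level, so the enzymes are not ranked against each other, and the label whole embryo could not be checked by the presence of marker genes. In whole embryos, more RNA per cell and more cells of a type cannot be told apart. The targeted genes do not check the labels: the Notch1 transcript was not lower in Notch1 null than in wild type (log2 difference 0.71, adjusted p = 0.0138, and 0.60, adjusted p = 0.142, at its 2 probe sets), Dll3 did not pass in Dll3 null (-0.27, adjusted p = 0.486), and no source used here places the probes against the targeted exons. A control RNA added during preparation, dap, also differed: its mean ratio ran from 0.360 to 0.403 over the Dll3 arrays, was 1 in Notch1 het, 5.26 and 2.62 in Notch1 null, and highest in wild type at 6.61 and 9.20.

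Prolyl 4-hydroxylase turns proline of new collagen chains into hydroxyproline, which holds the triple helix together at body temperature. It is built of a catalytic alpha subunit, made from P4ha1 or P4ha2, and a beta subunit made from P4hb, which by itself is protein disulfide isomerase. The lysyl hydroxylases made from Plod1, Plod2 and Plod3 modify lysine, and outside the cell the copper enzymes of the Lox family oxidise lysine and hydroxylysine so that collagen and elastin fibres crosslink. The hydroxylases use oxygen, iron, ascorbate and 2-oxoglutarate, and the lysyl oxidases use oxygen. Several genes of this set are known targets of the hypoxia-inducible factors (HIF), which bind DNA at a short core written ACGTG or GCGTG.

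RefSeq windows of assembly GRCm38.p6, running from 250 bases before to 50 after a start site, matched 5 of the 9 symbols. The upstream sequences of the 3 prolyl 4-hydroxylase genes are shown because they belong to subunits of 1 enzyme, of which P4ha1 and P4ha2 rose in Notch1 null and P4hb did not pass. Each is printed 5′ to 3′ on the strand of its gene and stops where the annotated gene begins. Capitals mark ACGTG or GCGTG on either strand, the reverse complements being CACGT and CACGC. P4ha1 is chr10:59323046-59323196 on the plus strand, P4ha2 is chr11:54100674-54100923 on the plus strand and P4hb is chr11:120573254-120573503 on the minus strand.
P4ha1: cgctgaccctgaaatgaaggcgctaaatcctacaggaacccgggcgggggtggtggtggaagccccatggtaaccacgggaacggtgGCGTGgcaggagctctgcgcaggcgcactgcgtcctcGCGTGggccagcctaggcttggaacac
P4ha2: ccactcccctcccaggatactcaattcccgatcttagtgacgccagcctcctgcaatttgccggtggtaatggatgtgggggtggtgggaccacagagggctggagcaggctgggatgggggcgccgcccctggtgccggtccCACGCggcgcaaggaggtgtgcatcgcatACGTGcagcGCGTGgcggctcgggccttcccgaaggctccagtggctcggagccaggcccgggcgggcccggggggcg
P4hb: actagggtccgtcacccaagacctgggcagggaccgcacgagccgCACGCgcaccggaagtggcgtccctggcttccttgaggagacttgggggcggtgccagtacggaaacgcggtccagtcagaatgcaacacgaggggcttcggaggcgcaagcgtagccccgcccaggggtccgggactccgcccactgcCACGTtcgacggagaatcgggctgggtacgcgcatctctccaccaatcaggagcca

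Over the whole 300-base windows, these cores matched 3 times for P4ha1, 4 times for P4ha2, 3 times for P4hb, 2 times for Plod1 and 4 times for Plod3. Of all 32841 windows of that length 43.8% held at least 1 match, 8.93% at least 3 and 3.86% at least 4. The matches stood in all 5 windows, both of genes that rose in Notch1 null and of genes that did not pass there. They are letters in a window and were not tested as binding sites.

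The first comparison set embryos homozygous for the Notch1 allele against wild type embryos. In Notch1 null, the catalytic prolyl 4-hydroxylase subunits P4ha1 and P4ha2 and the lysyl hydroxylase Plod2 rose, P4ha2 by 2.83-fold, P4ha1 by 1.90- and 1.78-fold at its 2 probe sets, and Plod2 by 2.03- and 2.38-fold. Of the 3 Lox probe sets 1 rose, by 1.51-fold. P4hb, Plod1, Plod3 and Loxl1 did not pass. Together 6 of the 12 probe sets, from 4 of the 8 genes, were higher at an adjusted p under 0.05 and 0 were lower, where 3.46% of all probe sets were higher and 5.99% lower. The median log2 difference was 0.44 over the 12 probe sets and -0.03 over all probe sets tested.

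**Figure D1:**
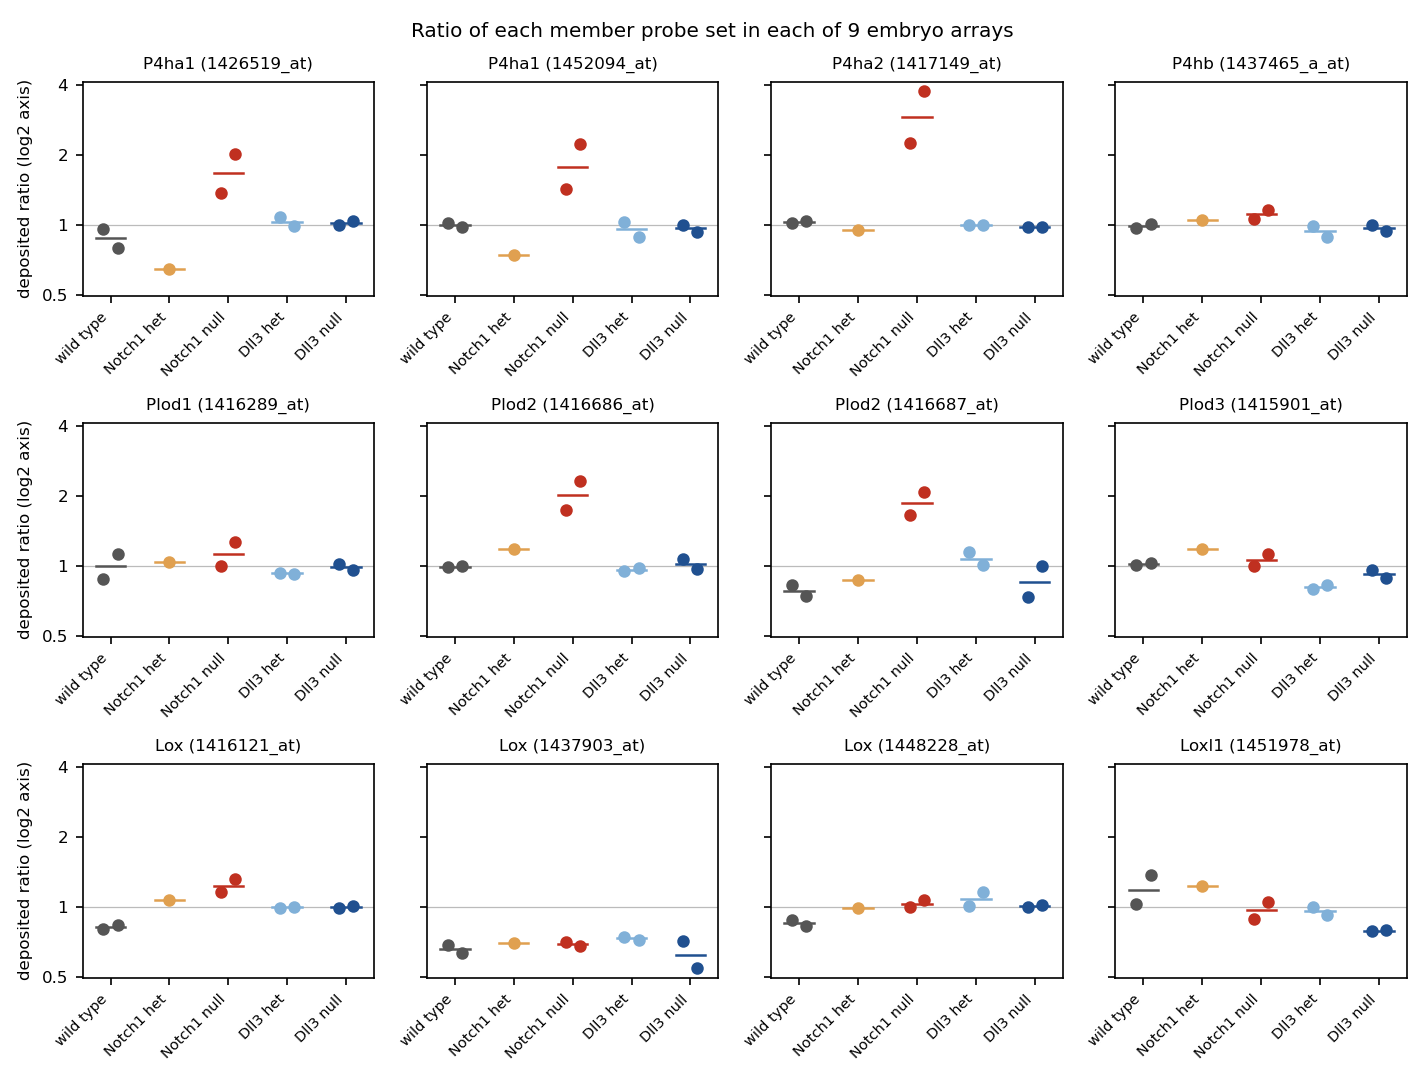
Deposited ratio (log2 axis, no unit) of each of the 12 probe sets in the 9 arrays, by genotype group; points are arrays and bars are geometric means of a group. Both Notch1 null arrays stand above the other 7 for P4ha1, P4ha2 and Plod2, with P4ha2 reaching 3.77, while Plod1, Plod3 and Loxl1 overlap with them.

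P4ha2 had the largest change among the 12 probe sets. Its ratio was 2.25 and 3.77 in Notch1 null and 1.02 and 1.04 in wild type. The other arrays stood at 0.952 in Notch1 het, 0.995 and 1 in Dll3 het, and 0.982 and 0.975 in Dll3 null. Both Notch1 null arrays were thus well above 7 arrays that spanned only 0.952 to 1.04, although they also lay far from each other. The log2 difference from wild type was 1.50 ± 0.20 (SE; 95% interval 1.06 to 1.94; adjusted p = 0.00367). It kept an adjusted p under 0.05 in all 19 alternative settings, the highest being 0.0415 without wild type replicate 2, and quantile normalization lowered it by over 1.5 times, to 0.99.

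P4ha1, the other catalytic subunit, was measured by 2 probe sets. At the first (1426519_at) the ratio was 1.38 and 2.02 in Notch1 null, 0.964 and 0.797 in wild type and 0.647 in Notch1 het, with 1.08 and 0.989 in Dll3 het and 1 and 1.04 in Dll3 null. At the second (1452094_at) it was 1.42 and 2.22 in Notch1 null, 1.02 and 0.978 in wild type and 0.743 in Notch1 het, with 1.03 and 0.888 in Dll3 het and 1 and 0.934 in Dll3 null. Both Notch1 null arrays lay above the 7 others at either probe set, as at 7.08% of all probe sets, and the single Notch1 het array was the lowest of the 9 at both. The share of all probe sets with the Notch1 het array lowest is not given here. Differences between Notch1 null and wild type were 0.93 ± 0.18 (SE; adjusted p = 0.0134) and 0.83 ± 0.18 (adjusted p = 0.0240) on the log2 scale. Both calls rested on single arrays: without Notch1 null replicate 2 the adjusted p was 0.0878 and 0.123 (log2 0.65 and 0.51, the latter over 1.5 times lower), without wild type replicate 2 it was 0.107 and 0.133, and for 1452094_at it was also 0.107 without wild type replicate 1 and 0.0626 when only these groups were fitted.

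P4hb, the beta subunit, is needed by both catalytic subunits and also works on disulfide bonds of many other secreted proteins. Its ratio was 1.06 and 1.16 in Notch1 null, against 0.970 and 1.00 in wild type, 1.05 in Notch1 het, 0.993 and 0.887 in Dll3 het, and 1 and 0.945 in Dll3 null. The Notch1 null arrays were the highest of the 9 here too, by a small margin. The log2 difference was 0.17 ± 0.11 (SE; adjusted p = 0.408), and its 95% interval of -0.08 to 0.42 ends below the interval of P4ha2 and holds no change larger than 1.33-fold upward. The difference between the genes was not itself tested.

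Among the lysyl hydroxylases, Plod2, which acts on the end regions of the collagen chain, stood apart in the same arrays. At 1416686_at the ratio was 1.75 and 2.33 in Notch1 null, 0.985 and 1 in wild type, 1.19 in Notch1 het, 0.946 and 0.976 in Dll3 het, and 1.07 and 0.968 in Dll3 null. At 1416687_at it was 1.66 and 2.09 in Notch1 null, 0.826 and 0.740 in wild type, 0.873 in Notch1 het, 1.14 and 1.00 in Dll3 het, and 0.731 and 1 in Dll3 null. Both probe sets separated Notch1 null from all other arrays, while the second varied more among the rest, by 1.56-fold between its lowest and highest array. Log2 differences from wild type were 1.02 ± 0.14 and 1.25 ± 0.17 (SE), each with an adjusted p of 0.00418. The first kept its call in all 19 settings, and the second had an adjusted p of 0.0533 without Notch1 null replicate 2.

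Plod1, which hydroxylates lysine within the helix, had a ratio of 1 and 1.26 in Notch1 null and 0.877 and 1.13 in wild type, so the groups overlapped (log2 difference 0.18 ± 0.15, SE; adjusted p = 0.547). Plod3, which also adds sugars to hydroxylysine, had a ratio of 1 and 1.12 in Notch1 null and 1.01 and 1.03 in wild type, again overlapping (0.06 ± 0.11; adjusted p = 0.823). The 95% intervals reached from -0.16 to 0.51 for Plod1 and from -0.18 to 0.30 for Plod3. The Plod1 and Plod3 intervals both lay below that of Plod2 at either probe set, with no test of the difference between these genes.

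Lox, a lysyl oxidase that crosslinks collagen and elastin, gave different answers at its 3 probe sets. At 1416121_at the ratio was 1.16 and 1.32 in Notch1 null and 0.803 and 0.831 in wild type, with 1.07 in Notch1 het, 0.993 and 1 in Dll3 het, and 0.993 and 1.01 in Dll3 null. Here the wild type arrays were the lowest of the 9 and the Notch1 null arrays the highest. The log2 difference was 0.60 ± 0.11 (SE; adjusted p = 0.0108). Its call ended without Notch1 null replicate 2 (0.0906), wild type replicate 1 (0.0672) or wild type replicate 2 (0.0631), and when the 3 probe sets were averaged (log2 0.32, over 1.5 times lower; adjusted p = 0.0528).

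The other Lox probe sets did not pass. At 1448228_at the ratio was 0.996 and 1.07 in Notch1 null and 0.876 and 0.829 in wild type, and wild type again lay below all 7 other arrays (log2 difference 0.28 ± 0.11, SE; adjusted p = 0.165). A wild type pair below all 7 other arrays was seen at 2 of the 12 probe sets, both of Lox, and at 5.69% of all probe sets. The last, 1437903_at, had a ratio of 0.546 to 0.745 in all 9 arrays, with overlapping groups (0.08 ± 0.13; adjusted p = 0.804). Its median of 0.697 is below 1, as in 2811 of the tested probe sets, which are read here as dim ones that were divided by a floor.

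Loxl1, a lysyl oxidase known for its part in elastic fibres, was the only measured enzyme whose log2 difference was negative in Notch1 null. The ratio was 0.890 and 1.05 there and 1.03 and 1.37 in wild type, with 1.23 in Notch1 het, 1 and 0.924 in Dll3 het, and 0.789 and 0.792 in Dll3 null. The Notch1 null and wild type arrays overlapped, and the difference of -0.30 ± 0.15 (SE) did not pass (adjusted p = 0.269). Both Dll3 null arrays were the lowest of the 9.

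**Figure D2:**
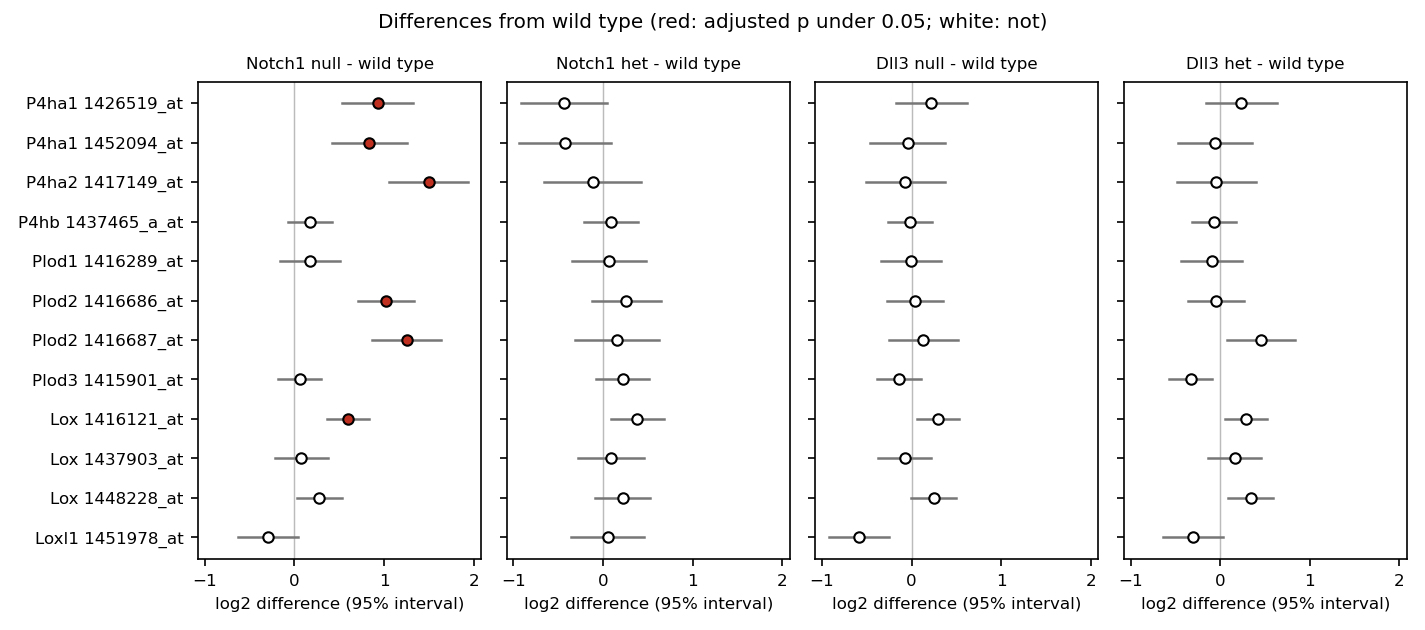
Log2 difference from wild type with its 95% interval (x axis) for each of the 12 probe sets (y axis) in Notch1 null, Notch1 het, Dll3 null and Dll3 het; red points have an adjusted p under 0.05. Red points occur only in the Notch1 null panel, at 6 probe sets, and the highest is P4ha2 at 1.50.

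Seen over all arrays, both Notch1 null arrays lay above the 7 others at 7 of the 12 probe sets, the 6 that passed and P4hb, and below them at 0. Of all probe sets 7.08% lay above and 11.3% below. The 2 Notch1 null arrays were not alike in size: replicate 2 was higher than replicate 1 at 11 of the 12 probe sets, by 1.68-fold for P4ha2 and 1.47- and 1.56-fold for P4ha1, whereas replicate 2 was higher at 45.8% of all probe sets. Leaving out replicate 2 cut the count of 6 called probe sets to 2, and leaving out wild type replicate 2 cut it to 3. Over all probe sets the count of 2139 called in either direction went to 306 and 398 in the same settings. The dap ratio was also lower in replicate 2 (2.62) than in replicate 1 (5.26) of Notch1 null. Its part in the differences from wild type was not tested.

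**Figure D3:**
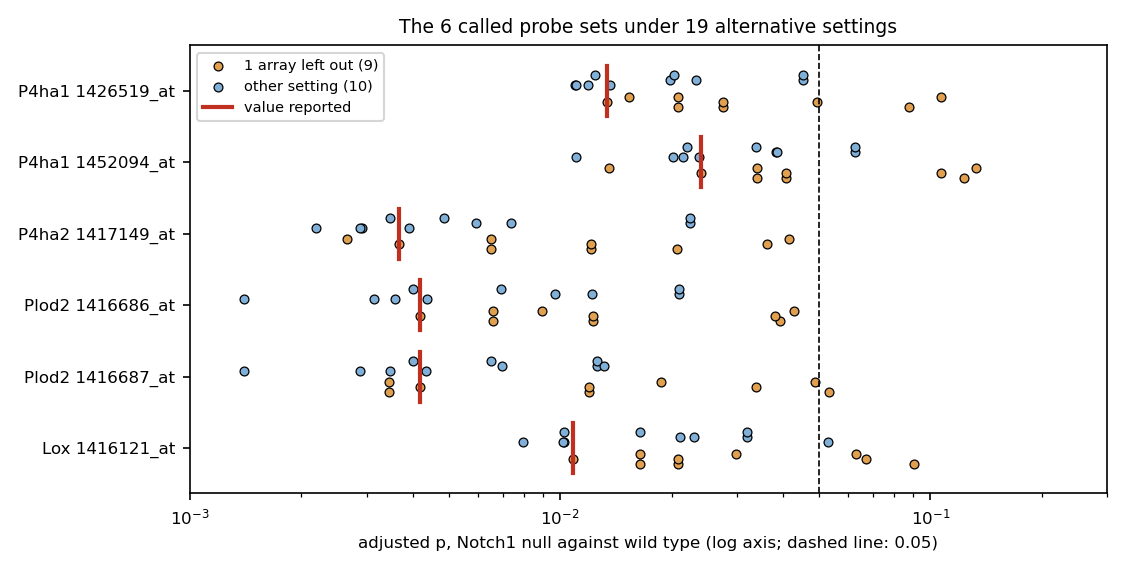
Adjusted p (log x axis) of Notch1 null against wild type for the 6 probe sets that passed, under 9 settings that leave out 1 array (orange) and 10 other settings (blue); the red bar is the value reported and the dashed line 0.05. P4ha2 and Plod2 1416686_at stay left of the line, and both P4ha1 probe sets cross it when single arrays are left out.

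Notch1 null was next compared with the heterozygous embryo, which carries the same allele once. P4ha1, P4ha2 and Plod2 were higher in the nulls: P4ha2 by 3.06-fold (log2 1.61 ± 0.24, SE; adjusted p = 0.0175), P4ha1 by 2.58- and 2.39-fold (adjusted p = 0.0205 and 0.0330) and Plod2 by 2.13-fold at 1416687_at (adjusted p = 0.0408). Plod2 1416686_at was 1.70-fold higher and did not pass (adjusted p = 0.0613). In all, 4 of 12 probe sets were higher and 0 lower, where 0.853% of all probe sets were higher and 0.928% lower. The Lox difference at 1416121_at was 0.21 ± 0.13 (adjusted p = 0.459). Only 1 Notch1 het array exists, its spread is assumed to be that of the other groups, and 0 of the 4 calls remained when only these 2 groups, or only the wild type and Notch1 arrays, were fitted; leaving out wild type replicate 1, wild type replicate 2 or Notch1 null replicate 2 gave 1 call, either Dll3 het array 2, quantile normalization 2, the replicate number as a block 2 and embryo sex in the fit 1. Calls over all probe sets, 403 in either direction, went to 0 with only these 2 groups, 88 with only the wild type and Notch1 arrays, and 22 to 191 in the other settings named.

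Notch1 het against wild type gave 0 called of 12 by limma, where 2.76% of all probe sets passed, and 1 of 12 at an unadjusted p under 0.05, where 19.4% of all probe sets lay. That 1 was Lox 1416121_at, with a log2 difference of 0.38 ± 0.13 (SE; adjusted p = 0.147). P4ha1 lay below both wild type arrays at both probe sets, by -0.44 ± 0.21 and -0.42 ± 0.23, and did not pass (adjusted p = 0.306 and 0.349). The intervals of P4ha2 (-0.65 to 0.43) and Plod2 (up to 0.64) leave room for changes of either sign.

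The ligand mutants were set against the same wild type arrays, which these comparisons therefore share with the Notch1 ones. In Dll3 null 0 of 12 probe sets passed by limma, where 0.0884% of all probe sets passed, and 2 of 12 lay under an unadjusted p of 0.05, as did 10.2% of all probe sets. The hydroxylases that rose in Notch1 null had log2 differences of 0.22 and -0.05 for P4ha1, -0.07 for P4ha2, and 0.03 and 0.13 for Plod2. The upper end of the 95% interval was 0.61 and 0.37 for P4ha1 (1426519_at and 1452094_at), 0.37 for P4ha2 and 0.51 or lower for Plod2. The 2 probe sets of low unadjusted p were Loxl1, at -0.59 ± 0.15 (adjusted p = 0.233), and Lox 1416121_at, at 0.29 ± 0.11 (adjusted p = 0.391).

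In Dll3 het 0 of 12 passed by limma, where 0.486% of all probe sets passed, and 4 of 12 lay under an unadjusted p of 0.05, as did 16% of all probe sets. The 4 were Plod2 1416687_at at 0.46 ± 0.17 (SE; adjusted p = 0.235), Plod3 at -0.33 ± 0.11 (adjusted p = 0.179), and Lox at 0.29 ± 0.11 (1416121_at; adjusted p = 0.228) and 0.34 ± 0.11 (1448228_at; adjusted p = 0.182). The other Plod2 probe set, 1416686_at, had a log2 difference of -0.05 ± 0.14 (adjusted p = 0.910). The Lox values share the low wild type arrays with the other comparisons against wild type. Plod3 had a ratio of 0.798 and 0.825 in Dll3 het, its lowest of the 9 arrays. The share of all probe sets with both Dll3 het arrays lowest is not given here. Dll3 null against Dll3 het gave 0 of 12 by limma, where 0% of all probe sets passed, and 0 of 12 also at an unadjusted p under 0.05, where 5.31% of all probe sets lay. The 12 log2 differences ran from -0.33 to 0.19.

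The arrays labelled Notch1 null and Dll3 null were then compared directly. Their dap ratios also differed, at 5.26 and 2.62 in Notch1 null and 0.360 and 0.377 in Dll3 null. A difference between the 2 sets of arrays cannot be told apart here from one between the loci, and the part of dap was not tested. P4ha1, P4ha2 and Plod2 were higher in Notch1 null than in Dll3 null at 5 of 12 probe sets, with 0 lower, where 2.46% of all probe sets were higher and 3.27% lower. P4ha2 differed by 2.97-fold (log2 1.57 ± 0.20, SE; adjusted p = 0.00474), Plod2 by 1.99- and 2.17-fold (adjusted p = 0.00737 and 0.00930) and P4ha1 by 1.63- and 1.84-fold (adjusted p = 0.0479 and 0.0268). Lox 1416121_at differed by 0.30 ± 0.11 on the log2 scale and did not pass (adjusted p = 0.135). When only these 2 groups were fitted 0 of the 5 remained, and without Notch1 null replicate 2 there was 1; leaving out either wild type array or Dll3 null replicate 2 gave 3, and leaving out Dll3 null replicate 1 gave 2. Over all probe sets the 1298 calls in either direction went to 9 with only these groups, 57 without Notch1 null replicate 2, 862 without wild type replicate 1 or wild type replicate 2, 879 without Dll3 null replicate 2 and 271 without Dll3 null replicate 1. With each null set against its own heterozygote, so that no array is shared, the effect at the Notch1 locus exceeded that at the Dll3 locus by 1.64 ± 0.31 for P4ha2 and 1.42 ± 0.27 for Plod2 1416687_at (SE; adjusted p = 0.0857 each), and by 1.38 ± 0.28 and 1.25 ± 0.29 for P4ha1 (adjusted p = 0.0969 and 0.130). By limma 0 of the 12 passed that test, where 0.208% of all probe sets passed, and 5 of 12 lay under an unadjusted p of 0.05, as did 13.8% of all probe sets.

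The other genes of the pathway were taken as lists, with the probe sets of a gene averaged; on that scale 3.76% of 12393 genes rose in Notch1 null against wild type and 8.35% fell, and the median of all genes was -0.03. The enzymes themselves gave 3 higher of 8 (P4ha1, P4ha2 and Plod2), with a median log2 difference of 0.25. Of 18 measured partners in collagen maturation, such as further hydroxylases, chaperones and propeptide proteases, 0 rose and 2 fell, with a median of 0.01. Those 2 were Pcolce, an enhancer of procollagen C-proteinase (1.47-fold lower, adjusted p = 0.0326), and Ppib, a prolyl isomerase of the endoplasmic reticulum (1.29-fold lower, adjusted p = 0.0429). Neither was lower in Notch1 null than in the single Notch1 het array, with log2 differences of 0.07 for Pcolce and 0.33 for Ppib. The median of the 18 partners in that comparison was -0.04. Quantile normalization, fitting only the groups compared, or leaving out wild type replicate 2 or either Dll3 het array gave 0 calls among these partners. Fkbp7 (log2 0.37 ± 0.12, SE) and Pcolce2 (-0.29 ± 0.14) came next by p and did not pass.

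Of 15 collagen chains and elastic fibre proteins, most of them substrates of these enzymes, 1 rose and 0 fell, with a median of 0.17. It was Col5a2, a chain of fibril-forming collagen V (1.41-fold, log2 0.50 ± 0.12, SE; adjusted p = 0.0224). Col1a1, the main chain of collagen I, was 1.50-fold higher and did not pass (adjusted p = 0.0662), and Col5a1 and Col4a2 had log2 differences of 0.34 and 0.36 (adjusted p = 0.109 and 0.121). The count was 5 without Notch1 null replicate 1 and 0 without Notch1 null replicate 2, either wild type array, with quantile normalization or with embryo sex in the fit.

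A list of disulfide isomerases, chaperones and stress genes of the endoplasmic reticulum, where P4hb also works, went the other way in part: 5 of 17 fell and 0 rose, with a median of -0.24. It also holds the transcription factors Ddit3 (log2 0.51, the highest of the list) and Xbp1 (-0.20), which did not pass. Against the single Notch1 het array the list median was -0.11, with -0.54 for Creld2, -0.31 for Manf, -0.07 for Sdf2l1 and -0.16 for Pdia3. Creld2 (1.65-fold lower, adjusted p = 0.00303), Manf (1.36-fold lower, adjusted p = 0.0170), Sdf2l1 (2.02-fold lower, adjusted p = 0.0186) and the disulfide isomerase Pdia3 (1.35-fold lower, adjusted p = 0.0274) had the lowest p; Creld2, Manf and Sdf2l1 are known to be induced by unfolded protein. The count was 1 with quantile normalization or without wild type replicate 2, and 2 without wild type replicate 1 or either Notch1 null array.

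Among 21 other enzymes that use oxygen and 2-oxoglutarate, 5 rose and 0 fell, with a median of 0.18. Egln3, a prolyl hydroxylase that marks HIF for degradation, rose 3.12-fold (log2 1.64 ± 0.13, SE; adjusted p = 0.000346), Egln1, of the same family, 1.74-fold (adjusted p = 0.0107), and the histone demethylases Kdm7a and Kdm3a 2.33- and 2.05-fold (adjusted p = 0.000379 and 0.000789). The count was 8 with median centring or array weights, and 3 without Notch1 null replicate 2 or wild type replicate 2. Of 24 genes known to be induced by hypoxia, Egln3 again among them, a list chosen with earlier results of these data known, 20 rose and 0 fell, with a median of 1.22; Bnip3, Stc2, Slc2a3 and Bhlhe40 had the lowest p, with log2 differences of 1.84, 1.70, 1.66 and 2.00. Against Notch1 het 16 of the 24 were higher, where 1.13% of all genes were. In Dll3 null against wild type 0 of the 24 passed by limma, where 0% of all genes rose and 0.00807% fell.

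**Figure D4:**
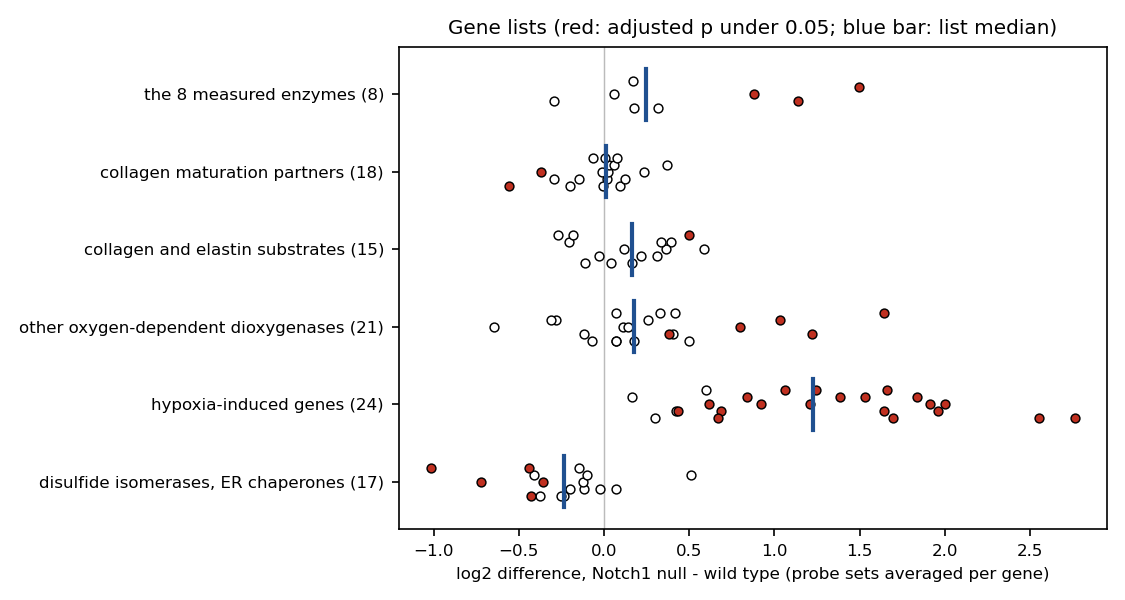
Log2 difference between Notch1 null and wild type (x axis) for each measured gene of 6 lists (y axis, number of genes in brackets), probe sets averaged per gene; red points have an adjusted p under 0.05 and blue bars are list medians. The enzymes split into 3 red points, the highest at 1.50, and 5 white ones from -0.30 to 0.32, while the hypoxia-induced genes have a median of 1.22.

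Markers of the tissues in the embryo also differed between these groups, and their part in the enzyme differences was not tested. Neural tube markers fell at 7 of 9, with a mean log2 value of -0.73 to -0.72 in the Notch1 null arrays and 0.18 to 0.40 in wild type. Mesenchyme and somite markers fell at 4 of 11 and rose at 1, with means of -0.26 to -0.12 against 0.07 to 0.17. Heart muscle markers rose at 2 of 8 (0.28 to 0.35 against -0.16 to -0.12) and endothelium markers at 2 of 8 (0.03 to 0.29 against -0.08 to -0.05). The lower neural tube mean was not particular to the nulls, since the single Notch1 het array stood at -0.42. That array had means of 0.05 for mesenchyme and somite, -0.10 for heart muscle and 0.19 for endothelium markers. Among 7 primitive red cell and 8 yolk sac and gut endoderm markers 0 passed by limma. The yolk sac and gut endoderm mean lay far apart between replicates, from -0.70 to 0.49 in Notch1 null and from -0.35 to 0.80 in wild type. A difference between these groups could therefore be missed. The red cell mean was -0.17 to 0.04 in Notch1 null, -0.023 to -0.019 in wild type and -0.62 to 0.05 in Dll3 null.

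The genes whose pattern over the 9 arrays was most like that of a risen enzyme were found by Pearson correlation of log2 values, which all points share in their normalization and in which both Notch1 null arrays weigh heavily. They were picked as the highest r over all 9 arrays, so r over the 7 arrays without Notch1 null is no independent check. For P4ha2 they were Slc37a4, Anxa2 and Bhlhe40 (r = 0.99 each, n = 9), and over the 7 arrays without Notch1 null r was 0.77, 0.85 and 0.36. For P4ha1 (1426519_at) they were Sil1, Pcmtd2 and Pim3 (0.99, 0.98 and 0.97), with 0.96, 0.95 and 0.94 over the 7 arrays. For Plod2 (1416687_at) they were Slc44a2, Fam169a and Plekha2 (0.98, 0.97 and 0.97), with 0.91, 0.91 and 0.83. These values belong to that probe set only: the 2 Plod2 probe sets had r = 0.85 with each other over 9 arrays and -0.45 over the 7. For Lox (1416121_at) they were Mtss1, Pfkl and Peg3 (0.98, 0.97 and 0.97), with 0.99, 0.94 and 0.93. Between enzymes, P4ha1 1452094_at and P4ha2 had r = 0.95 over 9 arrays and 0.67 over the 7 without Notch1 null. The other P4ha1 probe set, 1426519_at, had r = 0.87 and 0.25 with P4ha2. P4ha2 and Plod2 1416686_at had r = 0.97 and -0.61, and P4ha2 and Lox 1416121_at had 0.76 and -0.90.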

How the data were processed

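The deposited values are linear ratios per probe set, made by the authors with RMA (background correction, normalization between arrays and summary of probes) per the submitters' processing notes; no version or genome build is given in the sources used here. That each probe set was divided by its median or a floor is read from the values: the median over arrays is exactly 1 for 87.5% of 22690 probe sets and above 1 for 0. Whatever scaled the values, absolute levels are lost, so no filter on low values was applied and all 12 member probe sets were tested. The number of arrays limits the precision.

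Ratios were converted to log2 with no pseudocount, 64 control probe sets were set aside, and 22626 were fitted by lmFit and eBayes (limma 3.58.1, R 4.3.3; 1 mean per group over 9 arrays; degrees of freedom 4 residual plus 5.42 prior). Benjamini-Hochberg adjustment ran over all probe sets, separately in the 8 comparisons; passed means an adjusted p under 0.05. Errors are standard errors of that fit, which was also checked on simulated data. Of the tested probe sets 20380 carry 1 gene symbol in the platform annotation, 691 several and 1555 none; RefSeq changed 0 symbols. Named besides the enzymes are at most 4 genes of lowest p per list and the 3 genes of most similar pattern per risen enzyme; single genes behind a count of few were named after their values were seen. The members and lists were chosen with earlier results of these data known. Replicate numbers were not used as pairs in the main fit. Replicate differences correlated between groups from -0.10 to 0.16, above 0.1 for 1 of 6 pairs of groups, which cannot exclude a weak pairing. Alternatives were median centring, quantile normalization, robust eBayes, array weights, fits of fewer groups, replicate block, inferred embryo sex as a covariate, probe sets averaged per gene, floor-divided probe sets left out, and each array left out in turn. An array was taken as female where the mean log2 ratio of Xist exceeded that of Y-linked genes, which gave 4 female and 5 male patterns. Since the ratios hold no level, this inference was not checked.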

Additional observations from a re-analysis of the deposited data

Results flagged for a closer look

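The Notch1 null and Dll3 null arrays differed at 5 probe sets, as tested by Notch1 null minus Dll3 null. The wild type arrays do not enter that difference, but they still enter the estimate of spread behind its adjusted p. The dap ratio differed between the same arrays, at 5.26 and 2.62 against 0.360 and 0.377, and its part was not tested. The log2 differences were 0.71 (adjusted p = 0.0479) and 0.88 (0.0268) for P4ha1 at 1426519_at and 1452094_at, 1.57 (0.00474) for P4ha2, and 0.99 (0.00737) and 1.12 (0.00930) for Plod2 at 1416686_at and 1416687_at. Both Notch1 null arrays lay above both Dll3 null arrays at all 5, and at 9 of the 12 probe sets. The 5 were picked by their adjusted p, so that separation is no further evidence. The share over all probe sets is not given here. With each null against its own heterozygote 0 of 12 passed by limma (5 at an unadjusted p under 0.05).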

How the results depend on the processing

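The members were tested in 19 alternative settings. For Notch1 null against wild type the count of 6 called probe sets (4 genes) ran from 2 to 6 (2 to 4 genes) when single arrays were left out, lowest without Notch1 null replicate 2, and stayed within 1.5 times in the 10 other settings. The count for Notch1 null against Notch1 het, 4 probe sets of 3 genes, ran from 1 to 4 (1 to 3 genes) with single arrays left out; it was 2 probe sets with quantile normalization, 1 probe set (1 gene) with embryo sex as a covariate, and 0 probe sets and 0 genes with only the groups compared or only the wild type and Notch1 arrays. For Notch1 null against Dll3 null, 5 probe sets of 3 genes became 0 probe sets and 0 genes with only the groups compared and ran from 1 to 5 (1 to 3 genes) with single arrays left out. The comparison of each null with its own heterozygote gave 0 to 1 probe sets and 0 to 1 genes, the 1 without Notch1 null replicate 1 or Dll3 null replicate 2. The other 4 comparisons gave 0 in all settings run. The cause of these moves was not tested, but fits of fewer groups have fewer residual degrees of freedom.

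Replicate differences correlated only weakly between groups, which cannot exclude a weak pairing. With the replicate block, 6 probe sets were called against wild type, 2 against Notch1 het and 4 against Dll3 null.

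The sign turned only at probe sets that did not pass. At Lox 1437903_at, Notch1 null minus Notch1 het was -0.01 as reported, 0.0075 with median centring, 0.019 with quantile normalization, 0.061 with the replicate block, 0.066 with embryo sex, 0.086 with probe sets averaged, and -0.034 to 0.010 with single arrays left out. At the same probe set Notch1 null minus wild type was -0.0021 with embryo sex, and Notch1 null minus Dll3 null ran from -0.036 to 0.34 with single arrays left out. Leaving out single arrays gave -0.0041 to 0.36 for Plod1 and -0.028 to 0.14 for Plod3 against wild type, -0.058 to 0.28 for Plod1 against Notch1 het, and -0.019 to 0.083 for Lox 1448228_at against Dll3 null.

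With 1 or 2 arrays a group, intervals are wide, and ratios without levels leave signal over background unknown.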
